A study of Mus musculus with 9 samples.

Results

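The 8 genes Slc1a1, Slc1a2, Slc1a3, Slc17a6, Slc17a7, Slc32a1, Slc6a11 and Glul carry, load or make the amino acid transmitters of the brain, and were chosen by gene symbol from the 54532 genes of the cortex expression table. All 8 were found and all 8 passed the filter on low values. The table holds brain cortex RNA of 3 male mice each of C57BL6/J (B6), C3H/HeJ (C3H) and WSB/EiJ (WSB), aged 8 to 12 weeks. The reference genome was built from B6, a classical inbred strain like C3H, whereas WSB was inbred from wild mice. No treatment, transgene or injury is given for any of the 9 mice. The study asked which cortical genes differ between strains that also differ in infarct volume after stroke, with its candidate locus on chromosome 8. None of the 8 genes lies on that chromosome. Levels are FPKM (fragments per kilobase, with library size scaled out), so levels of different genes can be compared per length.

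Glutamate is the main excitatory transmitter of the cortex and GABA the main inhibitory one. Vesicular transporters load them into synaptic vesicles, plasma membrane transporters clear them from the extracellular space, and astrocytes convert glutamate to glutamine, which returns to neurons as a precursor of both. Astrocytic uptake of glutamate and its conversion to glutamine are known to limit the build-up of extracellular glutamate, which is toxic to neurons when energy fails.

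Glul, the glutamine synthetase of astrocytes, was lower in WSB than in B6 and lower in WSB than in C3H, and it was the only one of the 8 genes that passed the test in any comparison. Mean Glul FPKM fell by 29.0% from B6 to WSB, and by 24.0% from C3H to WSB. None of the 3 vesicular and 4 plasma membrane transporters passed, although Slc1a2 in both other strains lay below every B6 mouse. Across the 9 mice the spread was narrowest for the astrocytic transporter Slc1a3 and widest for the vesicular transporter Slc17a6.

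The promoter of Glul is shown because Glul is the gene that passed the test, and that of Slc1a3 because it is the astrocyte gene with the smallest spread. The sequences are RefSeq's on build GRCm38.p6, 250 bases ending just before the transcription start, each written 5′ to 3′ in the direction of its gene. Capitals mark 3 motifs searched on both strands. The CCAAT box was searched as its name spells it, the GC box as GGGCGG and the TATA box as TATAAA. A match on the opposite strand shows as the reverse complement. The matches share no bases in these windows.
Glul, chr1:153899679-153899928, plus strand: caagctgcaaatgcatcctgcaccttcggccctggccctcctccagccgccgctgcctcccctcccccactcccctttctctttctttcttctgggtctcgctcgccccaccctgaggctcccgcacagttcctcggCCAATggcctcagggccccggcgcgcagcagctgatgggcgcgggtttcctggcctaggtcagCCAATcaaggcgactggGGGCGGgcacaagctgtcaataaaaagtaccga
Slc1a3, chr15:8710808-8711057, minus strand: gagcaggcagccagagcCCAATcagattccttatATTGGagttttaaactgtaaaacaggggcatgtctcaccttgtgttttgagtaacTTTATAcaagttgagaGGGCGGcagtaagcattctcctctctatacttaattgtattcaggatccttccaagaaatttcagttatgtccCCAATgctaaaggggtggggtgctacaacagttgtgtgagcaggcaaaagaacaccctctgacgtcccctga

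The Glul window held 2 CCAAT boxes and 1 GC box and no TATA box by these letters. The Slc1a3 window held 3 CCAAT boxes, 1 GC box and 1 TATA box. Of the 8 genes, 6 held a GC box in the same window (Glul, Slc17a6, Slc17a7, Slc1a1, Slc1a3 and Slc6a11), 2 a CCAAT box and 1 a TATA box. Among all 32851 RefSeq promoters of that length, 32.7% held a GC box, 33.8% a CCAAT box and 12.4% a TATA box. The window used for Slc1a2, chr2:102706188-102706437, lay inside the annotated gene, which starts at 102658659. For Slc17a6 RefSeq gave another start, not counted here, whose window held none of the 3 motifs. A match describes the letters in the window and is not a measured binding site.

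Averaged over the 9 mice, the levels ran from 467 FPKM for Glul through 292 for Slc17a7, 162 for Slc1a2, 68.7 for Slc1a3, 39.2 for Slc32a1, 29.3 for Slc6a11 and then Slc1a1 to 6.90 for Slc17a6. Neighbours in this order overlapped between mice for Glul and Slc17a7, for Slc32a1 and Slc6a11, and for Slc1a1 and Slc17a6. The other neighbours did not overlap in any mouse. The highest mouse exceeded the lowest 1.13-fold for Slc1a3 and 4.72-fold for Slc17a6. The reads behind a value in a library ranged from 271 to 1190 for Slc17a6 and from 30316 to 52231 for Slc1a2, so no level of the 8 genes rested on a few reads.

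**Figure D1:**
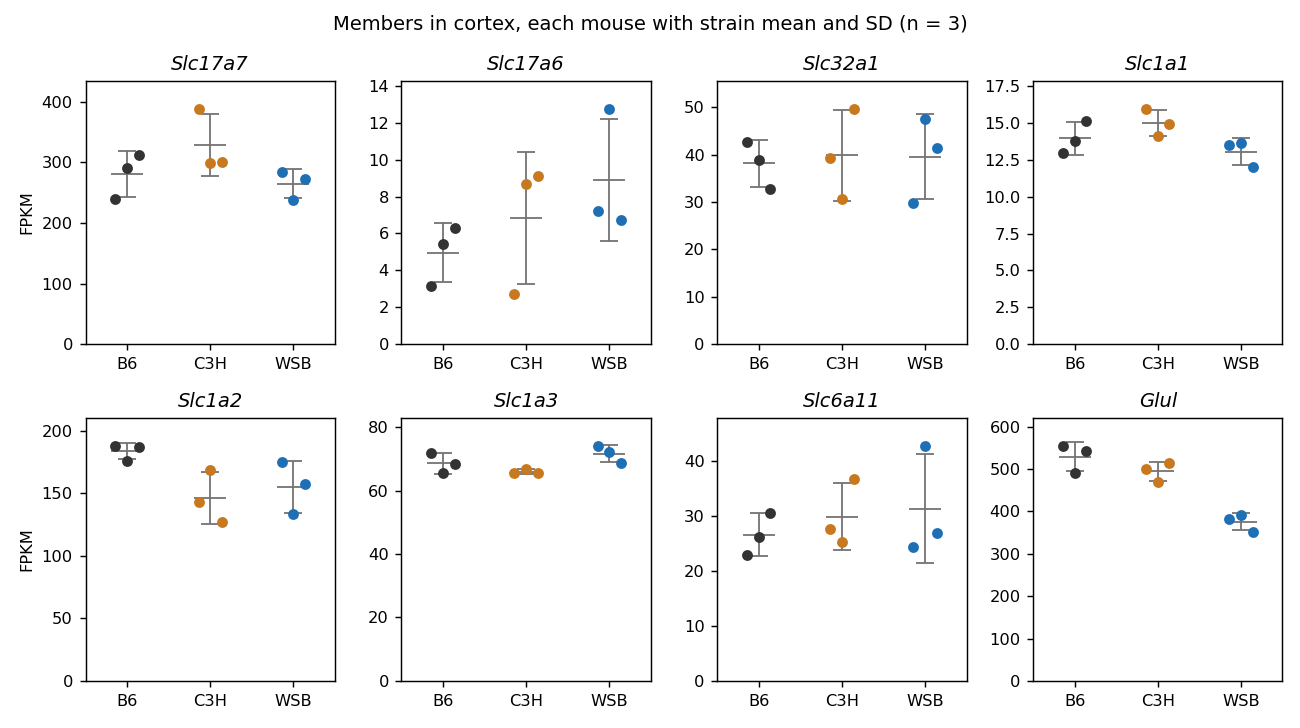
FPKM (vertical axes, each from 0) of the 8 genes in each of the 9 mice, by strain, with the horizontal bar at the mean and the whiskers at 1 SD (n = 3). The 3 WSB mice lie below all others for Glul (352.6 to 392.3 FPKM), and the 3 B6 mice lie above all others for Slc1a2.

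Reads on genes numbered 17651630 to 21562429 per B6 mouse, 19042306 to 19433751 per C3H mouse and 16317439 to 17784118 per WSB mouse. Two-sided limma tests on log2(FPKM + 0.1), with Benjamini-Hochberg adjustment over all genes tested and a threshold of 0.05, compared the strains in pairs. All log2 fold changes below are on this scale, which understates changes of low genes. Markers of excitatory cortical neurons were detected in every mouse, with a summed level of 402.9 to 558.7 FPKM over 8 genes and none at 0. Camk2a alone made up 292.1 to 432.5 FPKM of this sum. Markers of other parts of the tissue varied between mice of the same strain. Choroid plexus markers summed to 64.4 to 762.4 FPKM within B6, of which Ttr alone made up 61.7 to 748.8. Striatal markers summed to 110.0 to 456.4 FPKM within B6. The part of both lists in the results was not tested. Because the tissue was sequenced in bulk, fewer cells of a type and less RNA per cell cannot be told apart.

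Glul (ENSMUSG00000026473, GRCm38 chromosome 1 from 153899944 to 153909723, plus strand) encodes glutamine synthetase, the enzyme that joins ammonia to glutamate. It had 554.8, 490.5 and 542.0 FPKM in the 3 B6 mice, a mean of 529.1 ± 34.0 (SD, n = 3). The C3H mice had 500.7, 469.8 and 514.0 FPKM, a mean of 494.8 ± 22.7 (SD, n = 3). The WSB mice had 382.8, 392.3 and 352.6 FPKM, a mean of 375.9 ± 20.7 (SD, n = 3). Every WSB mouse was below every mouse of both other strains, whereas B6 and C3H overlapped. The log2 fold change was -0.49 in WSB against B6 (standard error 0.09, adjusted p = 0.0207, limma) and -0.40 in WSB against C3H (standard error 0.09, adjusted p = 0.0415, limma). Between C3H and B6 it was -0.10 (95% interval -0.31 to 0.12, adjusted p = 0.552, limma). Since both contrasts with B6 share its 3 mice, the WSB against C3H contrast is also the test that the effects of the 2 strains differ.

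Both Glul calls lay close to the threshold. Among 10 other settings, Glul passed in 7 in each WSB comparison, with log2 fold changes from -0.49 to -0.47 against B6 and from -0.40 to -0.36 against C3H. Leaving out 1 mouse kept the direction each time, but against B6 Glul passed only without WSB replicate 2 (adjusted p = 0.0496, limma) and against C3H only without C3H replicate 2 (adjusted p = 0.0327, limma). The fit without C3H replicate 2 called 2002 of 20614 genes in WSB against C3H, and the fit with all mice 1182 of 20607. In the other fits with 1 mouse fewer the adjusted p reached 0.0761 against B6, without B6 replicate 3, and 0.165 against C3H, without C3H replicate 3.

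No astrocyte marker passed beside Glul in the contrast with B6. The summed level of the 12 markers, none at 0, was 836.7 to 954.3 FPKM in B6 mice. C3H mice had 937.1 to 1005.9 and WSB mice 878.3 to 925.9. WSB thus overlapped B6 and lay below C3H in this sum. Its largest parts, Aldoc and Clu, went opposite ways. Aldoc had 306.2 to 327.4 FPKM in WSB against 276.7 to 288.0 in C3H, and Clu 231.0 to 257.1 against 278.3 to 312.5. In WSB against C3H, 4 of the 12 log2 fold changes were above 0 and 8 below 0. In WSB against B6, 0 of the 12 passed by limma, and 2 had an unadjusted p under 0.05, as had 4235 of all 20746 genes tested. In WSB against C3H 2 passed, Slc4a4, a bicarbonate cotransporter (0.38, adjusted p = 0.0359, limma), and Gfap, the astrocytic intermediate filament (-0.70, adjusted p = 0.0141, limma), in opposite directions. Oligodendrocyte markers were lower beside Glul. Their sum over 8 genes, none at 0, was 465.3 to 666.1 FPKM in WSB mice, against 869.7 to 1095.5 in B6 mice and 797.5 to 1068.4 in C3H mice. All 8 lay lower in every WSB mouse than in every B6 mouse, and 2 passed, the myelin genes Mal (-0.98, adjusted p = 0.0213, limma) and Mobp (-0.77, adjusted p = 0.0402, limma). That count ran from 0 to 2 when 1 mouse was left out, and it was 7 with voom weights. Of all genes tested in WSB against B6, 26.0% did not overlap in either direction and 5.9% passed. In WSB against C3H all 8 oligodendrocyte markers had a log2 fold change below 0, but only 4 did not overlap and 1 passed. The shares of all genes there were 28.6% and 5.74%. Some oligodendrocytes are known to make glutamine synthetase, and the part of these cells in the Glul values was not tested. Microglial markers summed to 146.8 to 157.9 FPKM in WSB against 199.5 to 204.9 in B6, with 3 of 8 lower past the test. The list was mixed, with 6 log2 fold changes below 0 and 2 above 0. Of these markers, Aif1 lay higher in every WSB mouse than in every B6 mouse.

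**Figure D2:**
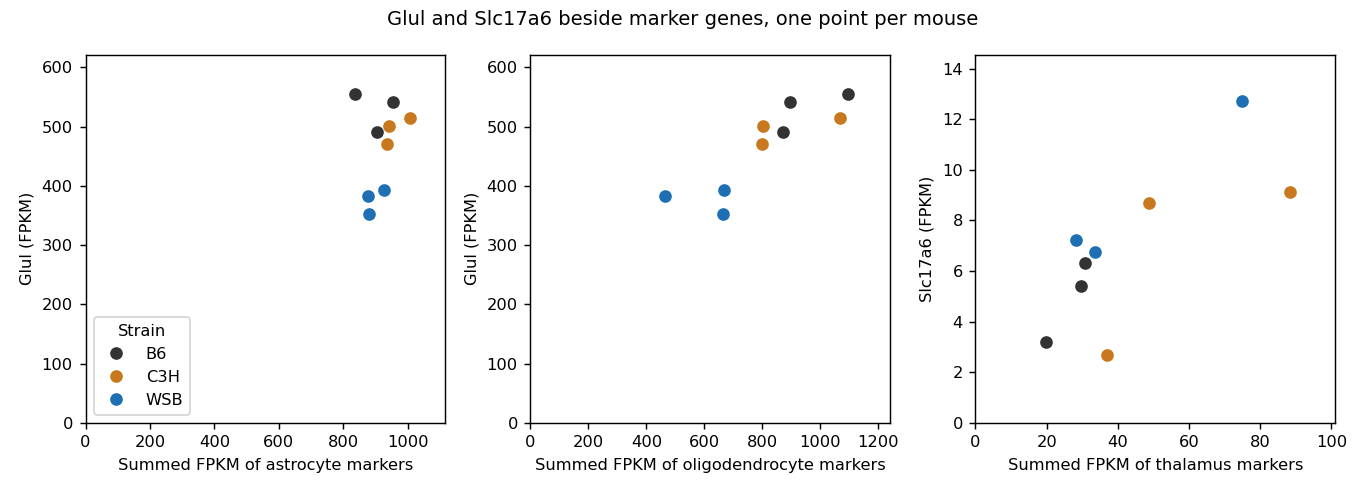
FPKM of Glul (left and middle, vertical axis) and of Slc17a6 (right, vertical axis) against the summed FPKM of astrocyte, oligodendrocyte and thalamus markers (horizontal axes), 1 point per mouse. The WSB mice stand apart from the B6 and C3H mice in the oligodendrocyte sum (at most 666.1 against at least 797.5 FPKM). In the astrocyte sum they overlap the B6 mice and lie below the C3H mice.

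Some reads could be shared with other genes. The exons of Glul overlap 116 bases of Teddm2 on the opposite strand, which had at most 106 reads in a library, and 93 bases of the microRNA gene Mir8114, which had 0. The Glul transcript matched the pseudogene Glns-ps1 over 1126 bases at 96.8% identity, and Glns-ps1 had 1 to 10 reads. It matched AC134576.3 over 1122 bases at 93.0% identity, and reads on that gene were not analysed here. It also matched 177 bases of Aldh7a1 at 91.0% identity, a gene with 854 to 2311 reads. Glul itself had 21152 to 38384 reads. Whether counting used the strand is not given in the sources used here.

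Of the 11749 genes averaging 1 FPKM or more, the 3 protein-coding genes whose log2 level followed that of Glul most closely over the 9 mice were Ppp1r15b (Pearson's r 0.986), which encodes a regulatory subunit of the phosphatase that acts on eIF2alpha, Sh3pxd2b (0.967), an adaptor protein of podosomes, and Capn3 (0.964), a calpain protease. The points share their libraries and strains, and no test was made of these values.

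Slc1a2 (ENSMUSG00000005089, chromosome 2 from 102658659 to 102790784, plus strand) encodes GLT-1, the astrocytic transporter that takes up most glutamate in the forebrain. The B6 mice had 187.8, 176.1 and 186.6 FPKM, a mean of 183.5 ± 6.4 (SD, n = 3). The C3H mice had 142.7, 168.2 and 127.0 FPKM, a mean of 145.9 ± 20.8 (SD, n = 3), and the WSB mice had 174.8, 133.3 and 157.5 FPKM, a mean of 155.2 ± 20.8 (SD, n = 3). All C3H and WSB mice lay below all B6 mice, and the C3H and WSB mice overlapped. On the log2 scale the difference was -0.34 in C3H against B6 (standard error 0.11, adjusted p = 0.128, limma) and -0.25 in WSB against B6 (standard error 0.11, adjusted p = 0.241, limma), and neither passed. Without C3H replicate 2, the C3H mouse with the highest Slc1a2 level, the log2 fold change in C3H was -0.45 (adjusted p = 0.0284, limma), past the threshold. That fit called more genes of every kind, 2301 of 20562, against 956 of 20602 with all mice. Without C3H replicate 3 the log2 fold change of Slc1a2 was -0.24 (adjusted p = 0.328, limma). In the 10 other settings the C3H against B6 value ran from -0.35 to -0.23 and passed in 0. Of all genes tested, 28.9% did not overlap between C3H and B6, and 26.0% between WSB and B6. The antisense gene Gm13872, which shares 189 exon bases with Slc1a2, had at most 21 reads.

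Slc1a3 (ENSMUSG00000005360, chromosome 15 from 8634124 to 8710764, minus strand) encodes GLAST, the other astrocytic glutamate transporter. The B6 mice had 71.8, 65.4 and 68.4 FPKM, the C3H mice 65.7, 66.9 and 65.4, and the WSB mice 74.1, 72.2 and 68.6. The WSB mice lay above the C3H mice, and both overlapped B6. Slc1a3 had a log2 fold change of 0.12 in WSB against C3H (95% interval -0.03 to 0.27, adjusted p = 0.306, limma) and 0.06 in WSB against B6 (95% interval -0.09 to 0.22), so a change as large as that of Glul lay outside the interval in both. Within each mouse, the FPKM ratio of Slc1a2 to Slc1a3 was 2.68 ± 0.06 (SD, n = 3) for B6. For C3H it was 2.21 ± 0.29 (SD, n = 3), and for WSB 2.17 ± 0.28 (SD, n = 3). The lowest B6 ratio was 2.62, and the highest ratio of the other mice was 2.51.

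Slc1a1 (ENSMUSG00000024935, chromosome 19 from 28835049 to 28913960, plus strand) encodes EAAC1, the glutamate transporter of neurons. It had 12.9, 13.8 and 15.1 FPKM in B6, 15.9, 14.1 and 14.9 in C3H and 13.5, 13.6 and 12.0 in WSB. The WSB mice lay below the C3H mice, by -0.20 on the log2 scale (standard error 0.09, adjusted p = 0.213, limma), which did not pass. Against B6 the log2 fold change was 0.10 in C3H and -0.10 in WSB, with overlapping mice. Its exons share 2631 bases with 4430402I18Rik on the opposite strand, which had at most 100 reads.

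Slc6a11 (ENSMUSG00000030307, chromosome 6 from 114131241 to 114249952, plus strand) encodes GAT-3, the GABA transporter found mainly on astrocytes. It had 22.9, 26.2 and 30.6 FPKM in B6, 27.6, 25.3 and 36.7 in C3H and 24.4, 42.7 and 26.9 in WSB. The strains overlapped in each comparison, and the level of WSB replicate 2 was the highest of the 9. Slc6a11 differed on the log2 scale by 0.16 in C3H against B6 (95% interval -0.21 to 0.53), 0.20 in WSB against B6 (95% interval -0.29 to 0.70) and 0.04 in WSB against C3H (95% interval -0.49 to 0.57). The upper bound of each interval exceeded the size of the Glul difference, so a rise of that size lay within the intervals. In WSB against C3H the fall of Glul, -0.40, lay within the Slc6a11 interval as well. In WSB against B6 the fall of Glul, -0.49, lay outside it.

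Slc17a7 (ENSMUSG00000070570, chromosome 7 from 45163949 to 45176142, plus strand) encodes VGLUT1, which loads glutamate into the vesicles of most cortical excitatory neurons. It had 239.9, 290.4 and 313.2 FPKM in B6, 387.9, 299.0 and 300.0 in C3H and 284.2, 238.3 and 272.0 in WSB. The C3H mice lay above the WSB mice, and B6 overlapped both. Slc17a7 had a log2 fold change of -0.31 in WSB against C3H (standard error 0.13, adjusted p = 0.201, limma), 0.22 in C3H against B6 (adjusted p = 0.368, limma) and -0.08 in WSB against B6 (adjusted p = 0.770, limma), and none passed.

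Slc17a6 (ENSMUSG00000030500, chromosome 7 from 51622006 to 51671119, plus strand) encodes VGLUT2, the vesicular glutamate transporter known for thalamic and other subcortical neurons. It had 3.18, 5.41 and 6.30 FPKM in B6, 2.70, 8.68 and 9.11 in C3H and 7.22, 12.7 and 6.75 in WSB. The WSB mice lay above the B6 mice, and the C3H mice spanned both the lowest level of the 9 and levels above all B6 mice. Slc17a6 had a log2 fold change of 0.83 in WSB against B6 (standard error 0.31, adjusted p = 0.195, limma), 0.32 in C3H against B6 (adjusted p = 0.707, limma) and 0.50 in WSB against C3H (adjusted p = 0.547, limma), and none passed. Its size depended on single mice. Leaving out 1 mouse moved the WSB against B6 value between 0.54 (without B6 replicate 1, likewise without WSB replicate 2) and 1.02 (without B6 replicate 3), and the C3H against B6 value between 0.025 (without C3H replicate 3) and 0.88 (without C3H replicate 1).

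Thalamus markers varied beside Slc17a6. Their sum over 7 genes was 19.7, 29.5 and 30.7 FPKM in B6, 37.1, 48.6 and 88.4 in C3H and 28.4, 74.9 and 33.5 in WSB. Within B6 and within C3H the order of the mice was the same for the sum and for Slc17a6. In B6 the largest part of the sum was Calb2, at 8.33, 19.9 and 19.7 FPKM, and the list was mixed. Tcf7l2, Zic1 and Gbx2 were highest in B6 replicate 1, the B6 mouse lowest in Slc17a6. Lef1, Prkcd and Rgs16 were highest in B6 replicate 3. WSB replicate 2 was the highest of its strain in both, while WSB replicate 1 had more Slc17a6 but a lower sum than WSB replicate 3. Between strains, C3H replicate 1, the lowest of the 9 mice in Slc17a6, had a sum above every B6 mouse. None of the 7 markers passed in WSB against B6 or in C3H against B6 (limma, 1 and 4 at an unadjusted p under 0.05), and all 7 had a log2 fold change above 0 in both. Of all genes tested, 4235 of 20746 and 4972 of 20602 had an unadjusted p under 0.05 in these comparisons (limma). The part of thalamic tissue in the Slc17a6 values was not tested. The ratio of Slc17a7 to Slc17a6 within a mouse ran from 18.7 in WSB replicate 2 to 143.9 in C3H replicate 1.

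Slc32a1 (ENSMUSG00000037771, chromosome 2 from 158610767 to 158615748, plus strand) encodes VGAT, which loads GABA into the vesicles of inhibitory neurons. It had 42.7, 38.9 and 32.8 FPKM in B6, 39.3, 30.6 and 49.6 in C3H and 29.9, 47.5 and 41.4 in WSB, with overlap in each comparison. Slc32a1 had a log2 fold change of 0.04 in C3H against B6 (95% interval -0.37 to 0.46), 0.03 in WSB against B6 (95% interval -0.38 to 0.45) and -0.01 in WSB against C3H (95% interval -0.51 to 0.50), and removing the GC trend reversed the sign of each of these 3 values. The ratio of the excitatory to the inhibitory vesicular transporter, Slc17a7 to Slc32a1, was 7.54 ± 1.96 (SD, n = 3) for B6. For C3H it was 8.57 ± 2.18 (SD, n = 3), for WSB 7.04 ± 2.28 (SD, n = 3), and the mice overlapped. The antisense gene Gm14205, which shares 697 exon bases with Slc32a1, had at most 1 read.

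**Figure D3:**
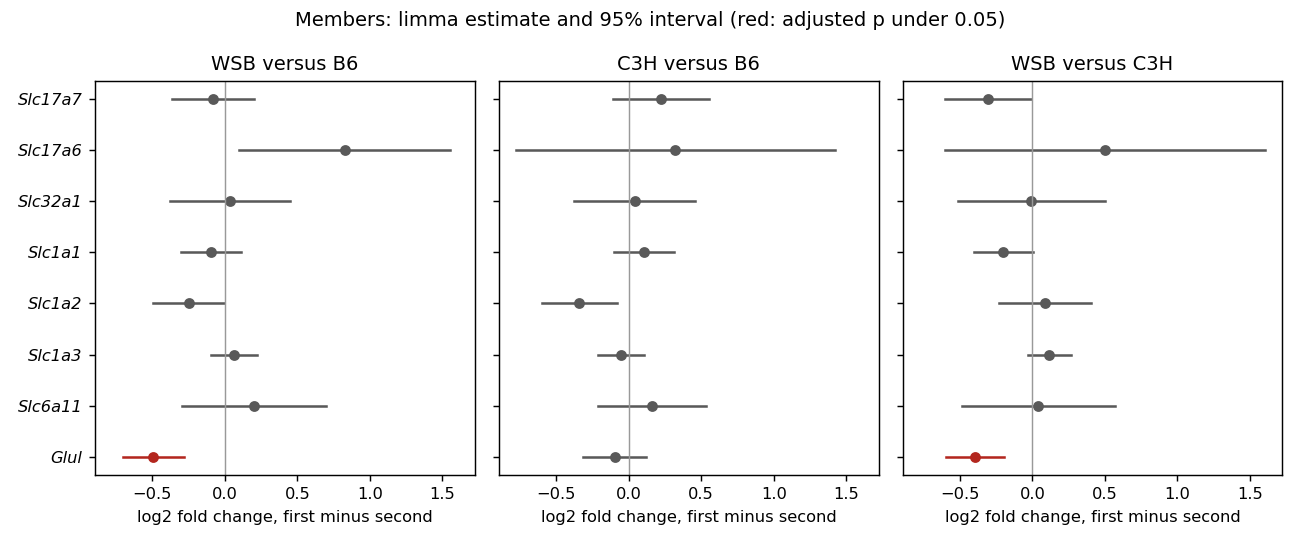
Log2 fold change (horizontal axis, first strain minus second, log2 of FPKM + 0.1) of the 8 genes in the 3 comparisons, with points at the limma estimate and lines over the 95% interval. Genes past the test are red, and Glul at -0.49 and -0.40 is the only one.

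In WSB against B6, 1 of the 8 genes passed, against 5.9% of all genes tested, and 3 of 8 did not overlap between the strains, against 26.0% of all genes. In C3H against B6, 0 of 8 passed by limma (1 at an unadjusted p under 0.05, and 0 with voom weights), against 4.64% of all genes, and 1 of 8 did not overlap, against 28.9%. Of all 20602 genes tested there, 4972 had an unadjusted p under 0.05 (limma). In WSB against C3H, 1 of 8 passed, against 5.74% of all genes, and 4 of 8 did not overlap, against 28.6%. As 1 of 8 genes makes 12.5%, these counts are given as a description of the 8 genes. The median log2 fold change of the 8 was -0.023, 0.073 and 0.017 in the 3 comparisons in this order, and that of all genes tested was 0.0025, -0.0038 and 0.0089.

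Of 28 other genes of glutamate and GABA handling, 27 were tested. In WSB against B6, 2 of 27 rose past the test and 0 fell. In C3H against B6, 1 rose and 0 fell, and in WSB against C3H, 1 rose and 1 fell. These calls made 7.4%, 3.7% and 7.4% of the 27 genes, near the 5.9%, 4.64% and 5.74% of all genes tested. The medians over the 27 genes were -0.02, 0.04 and 0.02 in that order.

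Slc1a6, which encodes EAAT4, a glutamate transporter known for cerebellar Purkinje cells, rose in WSB. It had 3.58, 4.65 and 3.71 FPKM in B6, 4.87, 4.27 and 5.15 in C3H and 7.71, 7.33 and 6.31 in WSB, so that every WSB mouse was above every other mouse. The log2 fold change was 0.83 against B6 (standard error 0.13, adjusted p = 0.0120, limma) and 0.57 against C3H (standard error 0.12, adjusted p = 0.0348, limma). Against B6 it did not pass without B6 replicate 3 (0.78, adjusted p = 0.0524, limma) or without WSB replicate 1 (0.77, adjusted p = 0.0505, limma). Against C3H it passed only without C3H replicate 2 or WSB replicate 3, with an adjusted p of up to 0.123 in the other 4 fits with 1 mouse fewer, reached without WSB replicate 1. Without C3H replicate 2, 2002 genes passed in WSB against C3H, against 1182 with all mice.

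Glud1, the mitochondrial glutamate dehydrogenase, rose in WSB against B6. It had 71.5, 67.9 and 72.4 FPKM in B6, 78.0, 80.0 and 82.3 in C3H and 91.3, 86.9 and 91.2 in WSB. The 3 strains did not overlap, with C3H between the other two. The log2 fold change was 0.35 in WSB against B6 (standard error 0.06, adjusted p = 0.0202, limma), 0.18 in C3H against B6 (adjusted p = 0.159, limma) and 0.16 in WSB against C3H (adjusted p = 0.180, limma), the last 2 not past the test. It passed against B6 only without B6 replicate 1 or WSB replicate 2, with an adjusted p of up to 0.103 in the other 4 such fits, reached without B6 replicate 2. Glutamate dehydrogenase and glutamine synthetase both use glutamate, and Glud1 and Glul moved in opposite directions between WSB and B6.

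Slc38a3, which encodes SNAT3, the carrier that releases glutamine from astrocytes, rose in C3H. It had 12.7, 11.4 and 10.6 FPKM in B6, 17.5, 14.9 and 19.0 in C3H and 11.9, 11.9 and 12.6 in WSB. The C3H mice lay above all others, and B6 and WSB overlapped. The log2 fold change was 0.56 in C3H against B6 (standard error 0.11, adjusted p = 0.0367, limma) and -0.49 in WSB against C3H (standard error 0.10, adjusted p = 0.0367, limma). Both calls were lost without any single mouse except C3H replicate 2, with adjusted p up to 0.138 and 0.141, each reached without C3H replicate 1. Without C3H replicate 2, 2301 genes passed in C3H against B6 and 2002 in WSB against C3H, against 956 and 1182 with all mice. The Slc38a3 call against B6 was also lost once the GC trend was removed (0.44, adjusted p = 0.0540, limma).

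The genes of GABA synthesis did not pass. Gad1 and Gad2, the glutamate decarboxylases, had log2 fold changes of 0.24 and 0.43 in WSB against C3H (adjusted p = 0.158 and 0.0561, limma). Slc7a11, the cystine and glutamate exchanger xCT, had the largest fold change of the 27 genes in size, -1.25 in WSB against B6 (standard error 0.29, adjusted p = 0.0532, limma), and was singled out after its values were seen. It passed in 5 of the 10 other settings. It had 3.96, 4.05 and 3.58 FPKM in B6 and 2.10, 0.904 and 1.99 in WSB, and without WSB replicate 2 the log2 fold change was -0.88 and past the threshold (adjusted p = 0.0152, limma). Slc1a7, which encodes EAAT5 of the retina, had at most 5 reads in a mouse and was not tested.

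**Figure D4:**
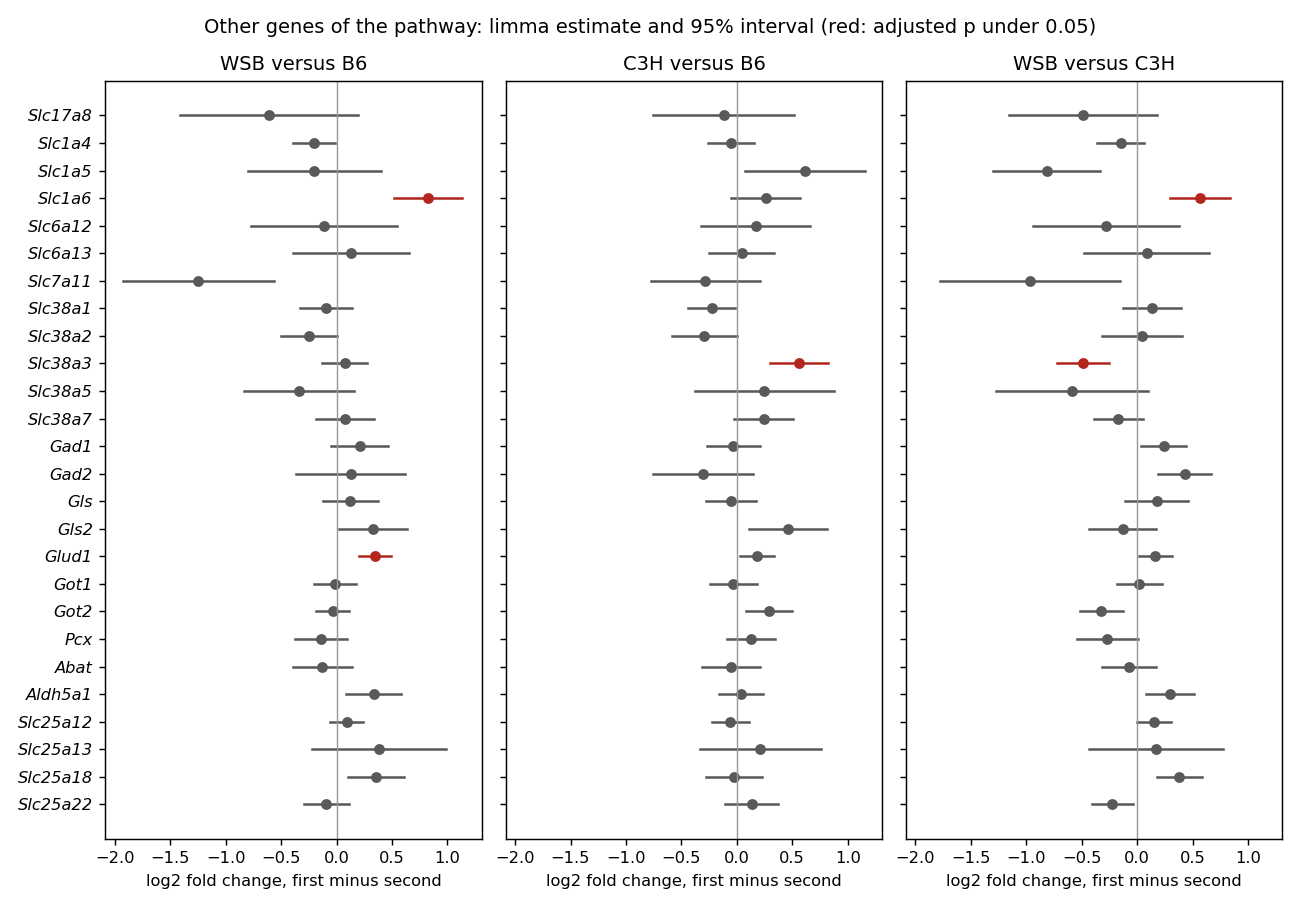
Log2 fold change (horizontal axis, first strain minus second, log2 of FPKM + 0.1) of other genes of glutamate and GABA handling in the 3 comparisons, with the limma estimate and its 95% interval. Genes past the test are red: Slc1a6 and Glud1 in WSB against B6, Slc38a3 in C3H against B6, and Slc1a6 and Slc38a3 in WSB against C3H.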

How the data were processed

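Per the study's methods, the authors used Cutadapt for trimming, HTSeq for counting per gene and DESeq2 for testing. They deposited FPKM values, scaled to gene length and library size, for each gene and mouse. The submitters' processing notes also name STAR. Versions, and whether counting used the strand, are not given in the sources used here. After multiplication by gene length, 100% of values were whole multiples of a step for each library (tolerance 0.01), which gave the reads per gene and their totals. Of 54532 identifiers, GENCODE M21 held 54409, and 53499 of them, all 8 members included, at identical coordinates.

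Strains were compared in pairs with limma 3.58.1 in R 4.3.3 (two-sided, lmFit and trended eBayes) on log2(FPKM + 0.1). Genes averaging under 0.1 FPKM over the 6 mice of a pair were not tested. Tests used Benjamini-Hochberg adjustment over all genes tested and a threshold of 0.05. Replicates were separate mice, and no pair of libraries of a strain agreed within sampling noise (chi-square per gene at least 7.87). Similar transcripts were searched with blastn 2.17.0. The test was also run on simulated data, whose changes were larger than that of Glul, so changes of its size were not checked. No column of values was left unused.

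The members and lists were chosen with earlier results of these data known. The text names all 8 members, every other pathway gene that passed or was not tested, the 3 genes most like a member that passed, and markers by list. Slc7a11, Gad1 and Gad2 are further names chosen after their values were seen. A pathway gene that passed no test is counted in the list but not reported here by name. Alternatives were a pseudocount of 1 or 0.01, testing all genes, a filter at 1 FPKM, rescaling by median ratios, removal of each library's GC trend, all 3 strains in 1 fit, eBayes without a trend, voom weights on the recovered reads, the replicate number as a block, and leaving out each mouse.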

Additional observations from a re-analysis of the deposited data

Results flagged for a closer look

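For 3 genes the WSB effect and the C3H effect, both against B6, differed by the test of the difference itself (WSB against C3H, limma with Benjamini-Hochberg adjustment over all genes tested). The WSB minus C3H difference was -0.40 for Glul (adjusted p = 0.0415, limma), lower in 3 of 3 WSB mice than in any C3H mouse. It was -0.49 for Slc38a3 (adjusted p = 0.0367, limma), again with every WSB mouse lower. For Slc1a6 it was 0.57 (adjusted p = 0.0348, limma), with every WSB mouse higher. Of all genes tested, 5.74% passed this comparison. For each of the 3 genes the difference was not past the threshold with eBayes run without a trend, with the replicate block and in at least 4 of the 6 fits that left out 1 mouse.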

How the results depend on the processing

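Across 10 settings and the fits that left out 1 mouse, log2 fold changes of the members and of the 4 other genes followed kept their direction and their side of the threshold in 499 of the values computed, became non-significant in 46, became significant in 9 and reversed in 22. Counts of genes were within 1.5 times the main count in 516 and outside it in 156. The causes were not tested. With no filter, with eBayes without a trend and with the replicate block, 0 members were called in WSB against B6 and 0 in WSB against C3H, since Glul no longer passed (adjusted p = 0.0695, 0.0583 and 0.0612 against B6, and 0.118, 0.0936 and 0.136 against C3H, limma).

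Of the 27 pathway genes, WSB against B6 gave 1 without a trend and 4 with voom weights. C3H against B6 gave 0 with no filter, with the GC trend removed, without a trend and with the replicate block. WSB against C3H gave 1 with no filter, 4 with a filter of 1 FPKM, 4 with the GC trend removed, 0 without a trend, 5 with voom weights and 0 with the replicate block. Over all genes, voom weights called 1797 in WSB against C3H, and the replicate block called 754 in WSB against B6, 480 in C3H against B6 and 531 in WSB against C3H. Correlations of the deviations of mice with the same number ran from -0.16 to 0.04, against -0.15 to 0.20 between mice of other numbers. The labels do not say what the number stands for, and whether it marks a shared batch was not tested.

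With the GC trend removed, Slc32a1 reversed to -0.016, -0.14 and 0.13 in WSB against B6, C3H against B6 and WSB against C3H, Slc1a3 to 0.044 and Slc7a11 to 0.0011 in C3H against B6, and Slc1a2 to -0.0028 in WSB against C3H. Voom weights turned Slc32a1 to 0.033 in WSB against C3H. None of these passed in either fit. Spearman's rho of log2 fold change with GC content was 0.11, 0.49 and -0.40 in the same order of comparisons, across genes and not across independent replicates.

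Leaving out 1 mouse gave 651 to 825 genes in WSB against B6, 498 to 2301 in C3H against B6 and 475 to 2002 in WSB against C3H, where 2301 and 2002 came without C3H replicate 2. Members called ranged from 0 to 1 in each comparison, and pathway genes from 0 to 3, 0 to 4 and 0 to 3. Log2 fold changes that reversed ranged from -0.19 to 0.00094 for Slc17a7 in WSB against B6, from -0.13 to 0.22, -0.11 to 0.22 and -0.18 to 0.18 for Slc32a1 in C3H against B6, WSB against B6 and WSB against C3H, from -0.044 to 0.36 and -0.20 to 0.20 for Slc6a11 in WSB against B6 and WSB against C3H, from -0.059 to 0.80 for Slc17a6 and from -0.0059 to 0.20 for Slc1a2 in WSB against C3H.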

Other observations

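Markers of other cell types and tissues also differed between mice and strains. Interneuron markers summed to 618.2 to 713.0 FPKM in WSB mice, against 549.6 to 598.5 in B6 mice and 569.2 to 652.7 in C3H mice, so that every WSB mouse was above every B6 mouse. All 9 had a log2 fold change above 0 in WSB against B6, with 0 past the limma test and 4 at an unadjusted p under 0.05. Of all 20746 genes tested there, 4235 had an unadjusted p under 0.05 (limma). Endothelial markers summed to 37.4 to 41.2 FPKM in B6 and 22.8 to 29.5 in WSB, with 2 of 6 lower past the test, Ly6c1 and Slco1a4. Ly6c1 had 0 reads in every WSB mouse, and without it, a choice made after seeing the data, the sums of the other 5 genes overlapped, at 26.6 to 30.2 FPKM in B6 and 22.8 to 29.5 in WSB. Blood markers summed to 632.3 to 1009.5 FPKM in C3H against 216.5 to 254.3 in B6, with 3 of 5 higher past the test. The list was mixed, with 4 log2 fold changes above 0 and 1 below 0, that of Hbb-bt at -1.39. Hbb-bt had 5.27, 2.20 and 69.3 FPKM in C3H, against 23.4 to 27.8 in B6. Of all genes tested, 5.9% passed in WSB against B6 and 4.64% in C3H against B6. Hippocampal markers summed to 9.84 to 46.5 FPKM in B6, and 0 of 7 passed in any comparison (limma). None of these values was used to adjust a member, and their part in the members' values was not tested.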
